A study of Mus musculus with 6 samples.

Results

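The genes described here are 8 caspases and mediators of inflammatory cell death, Casp1, Casp4, Casp8, Fas, Ripk1, Ripk3, Mlkl and Gsdmd, measured in mouse skin. They were taken as every probe set whose only symbol in the platform's annotation table was 1 of these names. This gave 7 of 45101 probe sets, 1 for each gene but Ripk1. Ripk1 had no such probe set and is not analysed here. Alopecic skin from 3 affected mice of the strain C3H/HeJ, with alopecia areata, was compared with skin of 3 unaffected C3H/HeJ mice, with 1 array per mouse. Alopecia areata is hair loss driven by an immune attack on the growing follicle, and C3H/HeJ is an inbred strain that can develop it without manipulation. All 6 mice share the strain's defective allele of Tlr4, the receptor for bacterial endotoxin. The sources used here do not give the animals' age and sex or the body site sampled. Values are log2 RMA values, a relative scale on which 1 unit is a doubling. RMA corrects background, aligns the arrays to one another and summarises each probe set, so a level can be compared between arrays but not between probe sets of different genes.

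These genes code for connected routes by which a cell is killed. Fas is a death receptor that, once bound by its ligand, recruits the initiator caspase Casp8, which starts apoptosis. Where Casp8 is blocked, the kinases Ripk1 and Ripk3 activate Mlkl, which ruptures the plasma membrane in a process called necroptosis. Casp1, activated on inflammasomes, and Casp4, the mouse enzyme also called caspase-11 that responds to endotoxin inside the cell, cut Gsdmd, whose fragment forms pores that cause pyroptosis. In mice, loss of Casp8 from the epidermis inflames the skin through Ripk3 and Mlkl.

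No member passed the test over all genes, although 6 of the 7 measured members had all 3 alopecic arrays above all 3 unaffected arrays. With limma and Benjamini-Hochberg adjustment over 18193 genes, 0 of 7 members had an adjusted p under 0.05, while 0.264% of all genes rose and 0.011% fell. The members were chosen with earlier results of these data known, so the shares over all genes are a scale and not a test. At an unadjusted limma p under 0.05, 6 of the 7 were higher, against 4.8% of all genes. The groups did not overlap for the same 6, with the alopecic arrays on top, which held for 6.93% of all genes. Alopecic means were at least 2-fold above unaffected means for 3 of the 7, Mlkl, Casp4 and Casp1, and for 2.68% of all genes. The median log2 difference of the 7 members was 0.99, beside -0.01 over all genes. In a fit of all 45037 probe sets other than controls, 0 of the 7 member probe sets passed and 0.14% of all rose. Each measured member had 1 probe set, so this fit read the same member values again. At an unadjusted p under 0.05 in that fit, 6 of the 7 were higher, beside 3.65% of all probe sets. Skin is a mixture of cells, and a bulk array cannot tell more cells of a type from more RNA per cell.

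**Figure D1:**
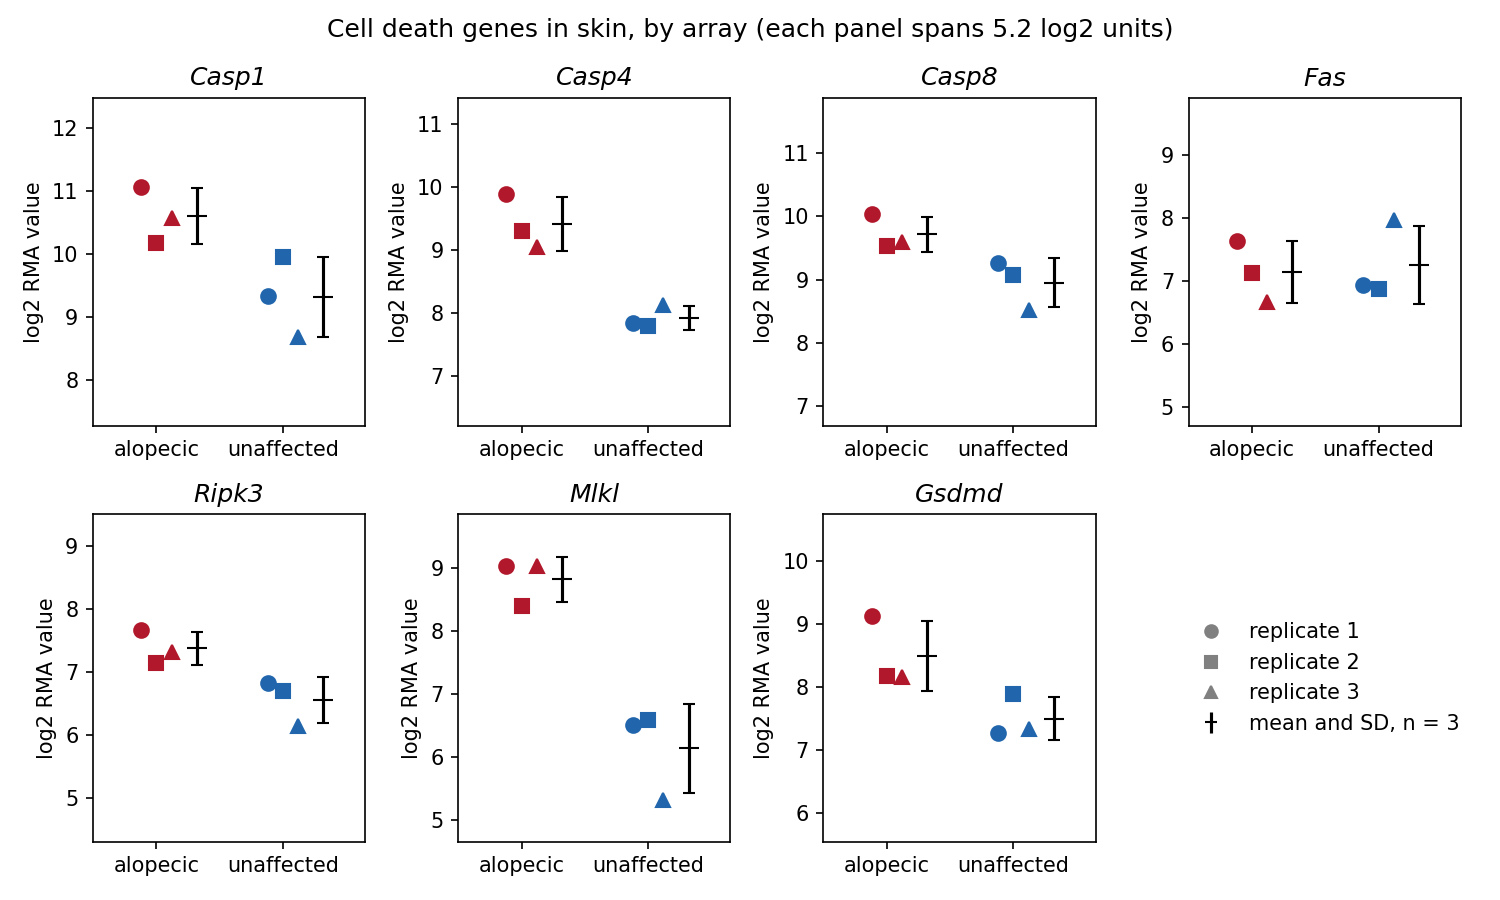
Log2 RMA values of the 7 measured genes in each array, with alopecic arrays in red at the left and unaffected arrays in blue at the right; the marker shape gives the replicate number and the black bars the mean and SD of 3 arrays. The groups are separate in every panel but that of Fas, and the gap between them is widest for Mlkl.

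The arrays differed in ways that touch these genes. Unaffected replicate 3 carried 42.2% of the squared deviations of all genes from their group means, and its mean log2 value of 7 hair follicle genes was 6.37. For these 7 genes alopecic replicates 1, 2 and 3 averaged 11.67, 12.11 and 12.50, against 13.08 and 13.54 in unaffected replicates 1 and 2, so that all alopecic arrays lay below these and above unaffected replicate 3. As a check of the tissue, 8 keratinocyte markers averaged from 12.47 to 13.24 in alopecic and from 12.44 to 12.99 in unaffected arrays. Of these, 2 were higher in every alopecic array, which held for 6.93% of all genes, the share to set beside the counts below. Fibroblast genes averaged from 11.19 to 12.29 in alopecic and from 10.96 to 12.49 in unaffected arrays, with 0 of 6 separating the groups. Among markers of other cells, 6 pan-leukocyte genes averaged from 9.06 to 10.32 in alopecic and from 7.93 to 8.49 in unaffected arrays, and 4 of the 6 were higher in every alopecic array. The 7 measured T cell genes averaged from 7.26 to 8.41 in alopecic and from 6.27 to 6.43 in unaffected arrays. Of these, 6 were higher in every alopecic array, and Cd4 was lower in every one. Macrophage and monocyte genes averaged from 7.67 to 9.43 in alopecic and from 7.83 to 9.25 in unaffected arrays, and 1 of 7 was higher in every alopecic array. Neutrophil genes averaged from 6.43 to 7.41 in alopecic and from 6.06 to 6.99 in unaffected arrays, with 0 of 5 separating the groups. Dendritic and Langerhans cell genes averaged from 7.59 to 8.45 in alopecic and from 7.26 to 7.59 in unaffected arrays, with 2 of 5 higher in every alopecic array. Alopecic replicate 1 had the highest mean of each of these 5 leukocyte lists. Because the members are also expressed in leukocytes, these values stand beside every difference below; their part in it was not tested.

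Mlkl, the executioner of necroptosis, had the widest separation. Its log2 values were 9.02, 8.40 and 9.03 in alopecic replicates 1, 2 and 3 and 6.50, 6.58 and 5.32 in unaffected replicates 1, 2 and 3. The lowest alopecic array lay 1.82 log2 units above the highest unaffected array, and unaffected replicate 3 was the lowest of all. Its mean was 8.82 ± 0.36 in alopecic skin, against 6.14 ± 0.71 in unaffected skin (SD, n = 3 each), a log2 difference of 2.68 (SE 0.39), or 6.41-fold. Its 95% interval ran from 3.29-fold to 12.50-fold, and the adjusted p of 0.0997 missed the threshold. The unaffected mean lay close to the array medians of 6.11 to 6.17, where RMA compresses differences. With each array weighted by its estimated spread Mlkl passed (log2 difference 2.39, adjusted p = 0.0176), which it did in 1 of 14 alternatives. Over the others the adjusted p ran from 0.0598, without unaffected replicate 3, to 0.5004, with the replicate number as a block.

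Ripk3, the kinase that activates Mlkl, differed less. Alopecic replicates 1, 2 and 3 stood at 7.66, 7.14 and 7.31, and unaffected replicates 1, 2 and 3 at 6.81, 6.69 and 6.14. The gap between the groups was 0.32 log2 units. The mean was 7.37 ± 0.27 in alopecic skin, against 6.55 ± 0.36 in unaffected skin (SD, n = 3 each), which differ by 0.82 log2 units (1.77-fold; SE of the difference 0.23, adjusted p = 0.516). The 95% interval of the difference was 0.24 to 1.40 log2 units, which ends below the interval for Mlkl, 1.72 to 3.64. The difference between these effects was not tested. Unaffected replicate 3 lay within the range of the array medians, 6.11 to 6.17, and without it the difference of Ripk3 was 0.62.

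Casp8, the apoptotic initiator that also restrains necroptosis, had log2 values of 10.04, 9.53 and 9.59 in alopecic replicates 1, 2 and 3. In unaffected replicates 1, 2 and 3 it had 9.26, 9.07 and 8.52. All alopecic arrays lay above all unaffected arrays, by a gap of 0.27. Its means were 9.72 ± 0.28 in alopecic skin, against 8.95 ± 0.38 in unaffected skin (SD, n = 3 each), which differ by 0.77 log2 units (1.70-fold; SE of the difference 0.25, adjusted p = 0.578). Without unaffected replicate 3 the difference was 0.55.

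Fas, the death receptor upstream of Casp8, was the member whose groups overlapped. Its log2 values were 7.63, 7.12 and 6.65 in alopecic replicates 1, 2 and 3 and 6.93, 6.87 and 7.96 in unaffected replicates 1, 2 and 3. The highest array was unaffected replicate 3 and the lowest alopecic replicate 3. It averaged 7.14 ± 0.49 in alopecic skin, against 7.25 ± 0.61 in unaffected skin (SD, n = 3 each), and the log2 difference was -0.12 (SE 0.39, adjusted p = 0.964). The 95% interval, from -1.07 to 0.84, spans changes in either direction and reaches 1.79-fold upward. The sign turned without unaffected replicate 3, at 0.24, and without alopecic replicate 3, at 0.13.

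Casp4, the endotoxin-sensing caspase, was 9.89, 9.31 and 9.05 in alopecic replicates 1, 2 and 3 and 7.85, 7.79 and 8.14 in unaffected replicates 1, 2 and 3. The groups were 0.92 log2 units apart, and the unaffected arrays lay close together. Means were 9.42 ± 0.43 in alopecic skin, against 7.93 ± 0.18 in unaffected skin (SD, n = 3 each), a log2 difference of 1.49 (SE 0.24), or 2.81-fold with a 95% interval from 1.86-fold to 4.26-fold. The adjusted p was 0.134. With array weights Casp4 passed (log2 difference 1.38, adjusted p = 0.0429), in 1 of 15 alternatives; over the others the adjusted p lay between 0.1008 and 0.5905.

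Casp1, which matures interleukin-1 beta and interleukin-18, was higher with a wide spread. It had log2 values of 11.06, 10.17 and 10.57 in alopecic replicates 1, 2 and 3 and 9.32, 9.94 and 8.67 in unaffected replicates 1, 2 and 3. The lowest alopecic array, replicate 2, exceeded the highest unaffected array, also replicate 2, by 0.23. Means were 10.60 ± 0.45 in alopecic skin, against 9.31 ± 0.63 in unaffected skin (SD, n = 3 each), which differ by 1.29 log2 units (2.44-fold; SE of the difference 0.38, adjusted p = 0.534). The fold was 1.96 without unaffected replicate 3 and 3.04 without unaffected replicate 2.

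Gsdmd, the pore-forming substrate of Casp1 and Casp4, separated the groups with 1 alopecic array well above the rest. Its log2 values were 9.12, 8.17 and 8.16 in alopecic replicates 1, 2 and 3 and 7.26, 7.88 and 7.33 in unaffected replicates 1, 2 and 3. Alopecic replicate 1 stood almost 1 unit above the other alopecic arrays, which exceeded the highest unaffected array by at least 0.28. Means were 8.49 ± 0.55 in alopecic skin, against 7.49 ± 0.34 in unaffected skin (SD, n = 3 each), which differ by 0.99 log2 units (1.99-fold; SE of the difference 0.32, adjusted p = 0.593). Without alopecic replicate 1 the difference was 0.68, or 1.60-fold. An exact two-sided permutation test over the 20 assignments of the arrays gave p = 0.1 for Mlkl, Ripk3, Casp8, Casp4, Casp1 and Gsdmd, the smallest value that 3 against 3 arrays allow, and p = 0.7 for Fas.

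**Figure D2:**
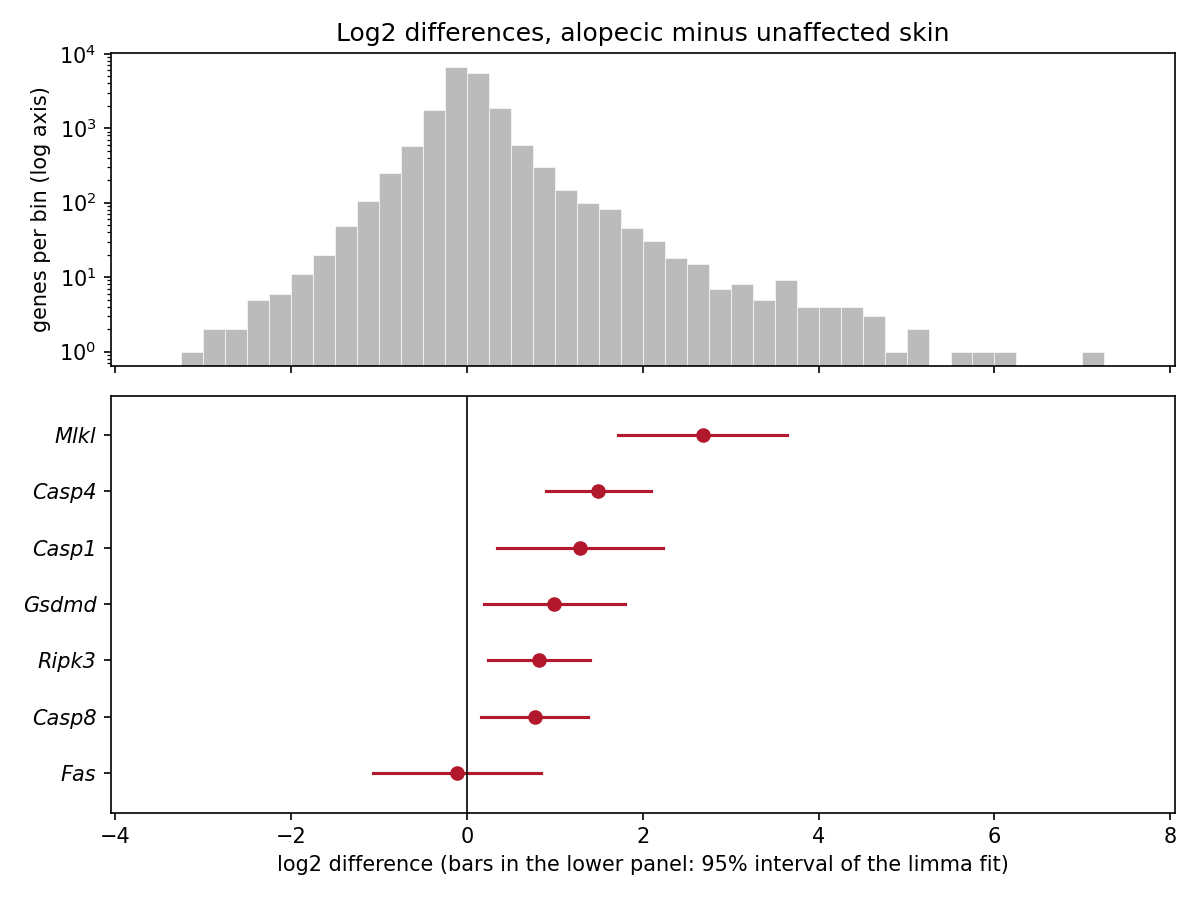
Log2 differences, alopecic minus unaffected skin; the upper panel counts all 18193 genes in bins of 0.25 on a log axis, and the lower panel gives the 7 measured members with 95% intervals of the limma fit, unadjusted for the number of genes. The interval of Fas spans 0, and the other 6 lie above it, from Casp8 at 0.77 to Mlkl at 2.68.

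Windows before the annotated start sites of the genes are shown for Casp1, Casp4 and Ripk3, whose arrays separated, and for Fas, whose arrays overlapped. The arrays of Casp8, Mlkl and Gsdmd separated too. The windows of Casp8 and Mlkl were searched, but too little of each lay outside the annotated gene to print. Gsdmd had no listed start site. The sequences are those of RefSeq on GRCm38.p6, the C57BL/6J assembly and not C3H/HeJ, on the strand of the gene, cut where the annotated gene begins. Capitals mark matches to TTCNNNGAA, the core of the gamma-activated site (GAS) bound by STAT dimers. The core of the interferon-stimulated response element (ISRE), read as a pair of GAAA with any 2 bases between them, was searched as well; both strands of 250 bases were read, and the patterns can overlap.
Casp1, chr9:5298267-5298516, plus strand: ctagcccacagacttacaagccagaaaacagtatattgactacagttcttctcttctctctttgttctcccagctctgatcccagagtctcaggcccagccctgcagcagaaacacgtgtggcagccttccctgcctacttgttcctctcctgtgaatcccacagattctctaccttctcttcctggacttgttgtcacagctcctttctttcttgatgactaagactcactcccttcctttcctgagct
Casp4, chr9:5308599-5308848, plus strand: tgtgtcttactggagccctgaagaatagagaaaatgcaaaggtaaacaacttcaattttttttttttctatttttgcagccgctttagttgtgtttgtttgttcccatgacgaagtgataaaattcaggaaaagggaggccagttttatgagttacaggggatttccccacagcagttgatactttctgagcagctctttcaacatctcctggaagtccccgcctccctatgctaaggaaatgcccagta
Ripk3, chr14:55788858-55789107, minus strand: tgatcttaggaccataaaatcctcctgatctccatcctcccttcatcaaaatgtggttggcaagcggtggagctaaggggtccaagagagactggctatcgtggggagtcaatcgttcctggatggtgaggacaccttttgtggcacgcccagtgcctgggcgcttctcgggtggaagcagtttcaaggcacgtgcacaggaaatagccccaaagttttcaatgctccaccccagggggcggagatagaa
Fas, chr19:34290409-34290646, plus strand: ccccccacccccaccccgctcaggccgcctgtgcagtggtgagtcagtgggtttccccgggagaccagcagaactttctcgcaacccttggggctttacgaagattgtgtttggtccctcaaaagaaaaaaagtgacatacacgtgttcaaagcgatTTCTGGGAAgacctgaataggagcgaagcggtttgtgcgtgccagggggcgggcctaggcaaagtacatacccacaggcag

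The table held start sites for 6 of the 7 measured members. Of these, Fas alone had a GAS core in the window, 93 to 85 bases before the start site in the table, which lies downstream of where the printed Fas sequence was cut, and none had an ISRE core. Among 32851 promoter windows of that length, 7.02% held a GAS core and 2.98% an ISRE core. A missing match says only that these letters are not in these windows, and a match is a description of sequence. Casp1 and Casp4 are neighbours on chromosome 9 of that assembly, and the next gene is Casp12, a related inflammatory caspase. Casp12 differed by 1.30 (SE 0.51, adjusted p = 0.691), and its groups overlapped.

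Fas did not share the profile of the other 6 measured members over the arrays. Pairs among those 6 had a Pearson r from 0.789, for Casp1 with Casp4, to 0.995, for Casp8 with Ripk3. Ripk3 and Casp8 had a Pearson r of 0.995 over the 6 arrays, and each was among the 3 genes most like the other out of all genes measured. Pycard, the adaptor that joins inflammasome sensors to Casp1, was also among the 3 most like each of them, at r = 0.9946 with Casp8 and 0.9927 with Ripk3. These correlations describe 6 shared arrays in 2 groups, so that pairs of genes that both separate the groups correlate. Casp8, Ripk3, Casp1 and Mlkl had their lowest value in unaffected replicate 3, while Casp4 and Fas had their highest unaffected value there. Casp4 correlated with Casp1 at 0.789 and with Gsdmd at 0.881. The correlations of Fas with the other 6 members ran from -0.342, with Mlkl, to 0.174, with Casp4.

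**Figure D3:**
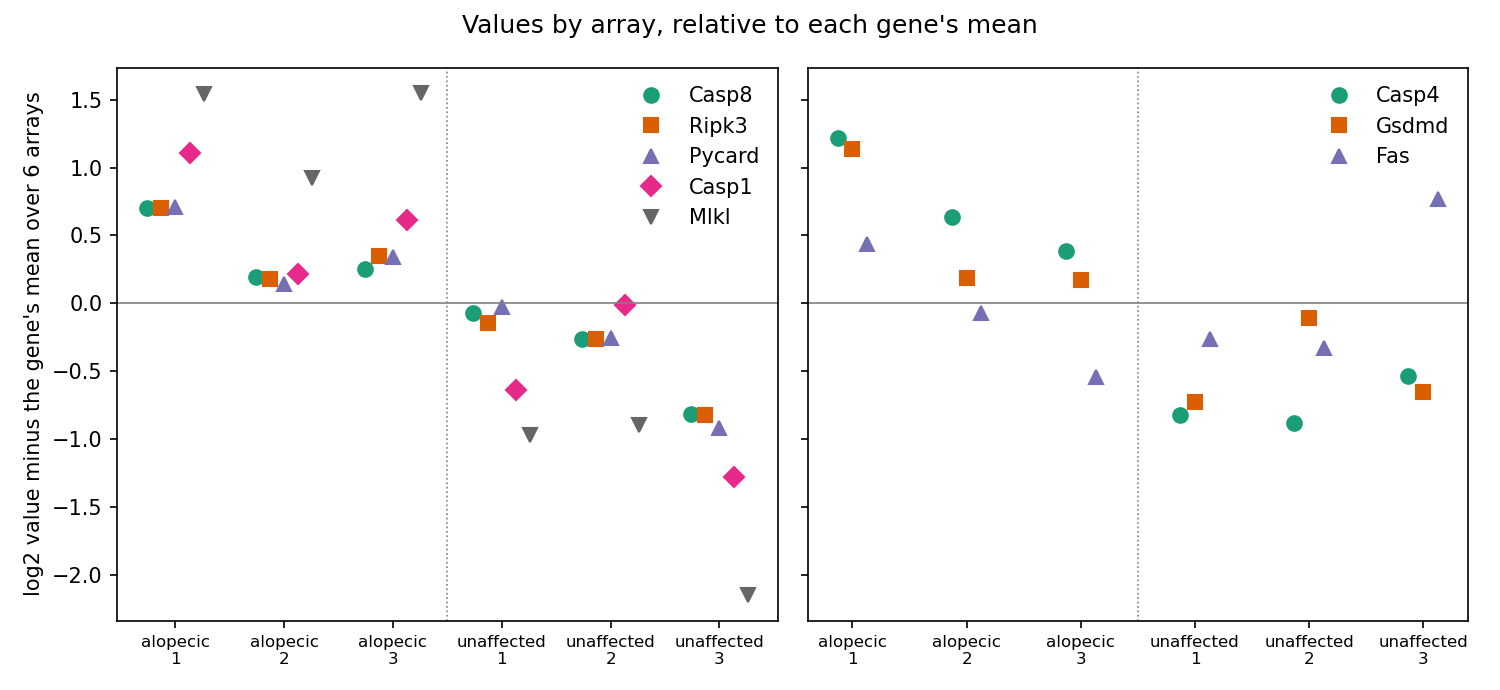
Log2 value of each gene minus its own mean over the 6 arrays, with alopecic arrays left of the dotted line and unaffected arrays right of it; 1 point per array, and no order among replicates. Casp8, Ripk3 and Pycard lie nearly on each other in every array in the left panel, whereas Fas in the right panel is highest in unaffected replicate 3; the panels were divided after the values were seen.

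The genes most like the other members over the 6 arrays were named by the same rule, the 3 highest Pearson r. Mlkl was closest to Mir142 (r = 0.9911), the locus of a blood cell microRNA, the zinc transporter Slc39a1 (0.9897) and the interleukin-21 receptor Il21r (0.987). Casp4 was closest to the MHC class I gene H2-Q5 (0.9971), whose signal can be shared with similar H2-Q genes, the kinase Map3k14 of noncanonical NF-kB signalling (0.9968) and the serpin Serpinb1b (0.9953). For Gsdmd they were Dram1 (0.9982), a regulator of autophagy, Herc6 (0.9977), the main ligase for ISG15 in mice, and the cation channel Trpv2 (0.9927). Casp1 was nearest to Gm1123, Lrrc4 and Nckap1, and Fas to Art3, Gm8709 and Serpina3i, with r from 0.9872 to 0.9978. The third gene was Ifi27l2a for Casp8 (0.9905) and Kif26b for Ripk3 (0.996). None of these similar genes passed the test, with adjusted p from 0.173 for Il21r to 0.97 for Art3.

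Other genes of the same routes were followed in 8 lists that held 72 measured genes outside the members. Of these, 1 rose and 0 fell, where 0.264% of all genes rose. At an unadjusted p under 0.05, 22 were higher, against 4.8% of all genes, and 0 were lower. Every alopecic array lay above every unaffected array for 26, against 6.93% of all genes, the share to set beside the counts per list below. The median log2 difference of the 72 genes was 0.25. The lists were chosen with earlier results of these data known, so these counts are descriptive. The gene that rose was Adar, an enzyme that edits double-stranded RNA and so limits sensing by Zbp1, at 1.40 log2 units higher (SE 0.14, adjusted p = 0.0363). Its means were 9.25 ± 0.03 in alopecic skin, against 7.85 ± 0.23 in unaffected skin (SD, n = 3 each). Leaving out any 1 array ended this call, with adjusted p from 0.0556 without unaffected replicate 3 to 0.199 without unaffected replicate 1. The call was also lost with the replicate number as a block (adjusted p = 0.3344) and with a trend in eBayes (0.0534). With the probe set of largest variance for each gene the adjusted p was 0.0839. Adar passed in all the remaining alternatives.

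On the necroptosis side, Adar was the 1 of 7 measured triggers and modifiers that passed. Zbp1, a nucleic acid sensor that activates Ripk3 directly, was chosen after its values were seen. Its log2 values were 10.38, 9.46 and 8.86 in alopecic replicates 1, 2 and 3 and 6.61, 6.16 and 6.11 in unaffected replicates 1, 2 and 3, so all alopecic arrays stood far above the others. The log2 difference of 3.27 (SE 0.40, 9.65-fold) had an adjusted p of 0.0599. Zbp1 passed in 4 of the 15 alternatives, with adjusted p from 0.0277 to 0.0439. In the rest its adjusted p ran from 0.05455 to 0.3041, the latter without unaffected replicate 2. Of the death ligands and receptors 0 of 9 passed and 5 were higher in every alopecic array. Tnfsf10, which encodes the death ligand TRAIL, differed by 2.49 (SE 0.49, adjusted p = 0.237), and Lta, lymphotoxin alpha, by 1.39 (SE 0.36, adjusted p = 0.445), its unaffected mean being below the array medians. Tnfsf10 passed without unaffected replicate 3 (adjusted p = 0.0332) and with array weights (adjusted p = 0.0226). Over the other alternatives its adjusted p ran from 0.162 to 0.7906, the latter with the replicate number as a block. Fasl, the ligand of Fas and also chosen after its values were seen, was dim, at 4.72 ± 0.16 in alopecic skin, against 4.35 ± 0.15 in unaffected skin (SD, n = 3 each), a log2 difference of 0.37 (SE 0.14, adjusted p = 0.646). Both means lay below the array medians.

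Of the adaptors and regulators of the death receptor complexes 0 of 16 passed, and 6 were higher in every alopecic array. The largest differences were those of Tnfaip3, which encodes the ubiquitin editor A20 that restrains NF-kB and necroptosis, at 0.93 (SE 0.35, adjusted p = 0.661), and of Rnf31, a subunit of the linear ubiquitin ligase, at 0.85 (SE 0.33, adjusted p = 0.686). In the mitochondrial route 0 of 15 passed and 5 were higher in every alopecic array. Pmaip1, which encodes the BH3-only protein Noxa, differed by 1.63 (SE 0.35, adjusted p = 0.298) and the pore-forming Bak1 by 1.53 (SE 0.19, adjusted p = 0.0599). Bak1 passed with array weights (adjusted p = 0.0141). Its adjusted p was 0.2713 with the mean of each gene's probe sets and 0.3366 with the replicate number as a block. The median of this list was 0.08. None of the 5 other measured caspases passed, and Casp6, an effector, differed by 0.47 (SE 0.34, adjusted p = 0.859). Without unaffected replicate 3 the difference of Casp6 was 0.08.

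Around Casp1, 0 of 9 inflammasome sensors and adaptors passed and 4 were higher in every alopecic array. Pycard differed by 0.80 (SE 0.28, adjusted p = 0.619) and Naip5, a sensor of bacterial flagellin, by 0.78 (SE 0.26, adjusted p = 0.6001). Naip5 was dim, averaging 4.89 in alopecic arrays and 4.11 in unaffected arrays, both below the array medians. The list's median was 0.03. Of the cytokines processed on inflammasomes, their relatives and their inhibitors 0 of 6 passed. Il18bp, which encodes a secreted inhibitor of interleukin-18, differed by 2.18 (SE 0.33, adjusted p = 0.116) and was higher in every alopecic array. It passed with array weights (adjusted p = 0.0255). Over the other alternatives that held Il18bp the adjusted p ran from 0.08895 to 0.4155, the latter without unaffected replicate 2. The substrate Il1b differed by 0.48 (SE 0.35, adjusted p = 0.859), and its groups overlapped. Among other gasdermins and the membrane rupture gene Ninj1, 0 of 5 passed. Gsdmc2 differed by 1.16 (SE 0.69) and Gsdma2 by 0.33 (SE 0.54), with adjusted p of 0.838 and 0.922. Gsdmc2 had log2 values of 4.50, 6.93 and 4.50 in alopecic replicates 1, 2 and 3, against a dim unaffected mean of 4.15, and without alopecic replicate 2 its difference was 0.34. Without that array the difference of Gsdma2 was 0.93.

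**Figure D4:**
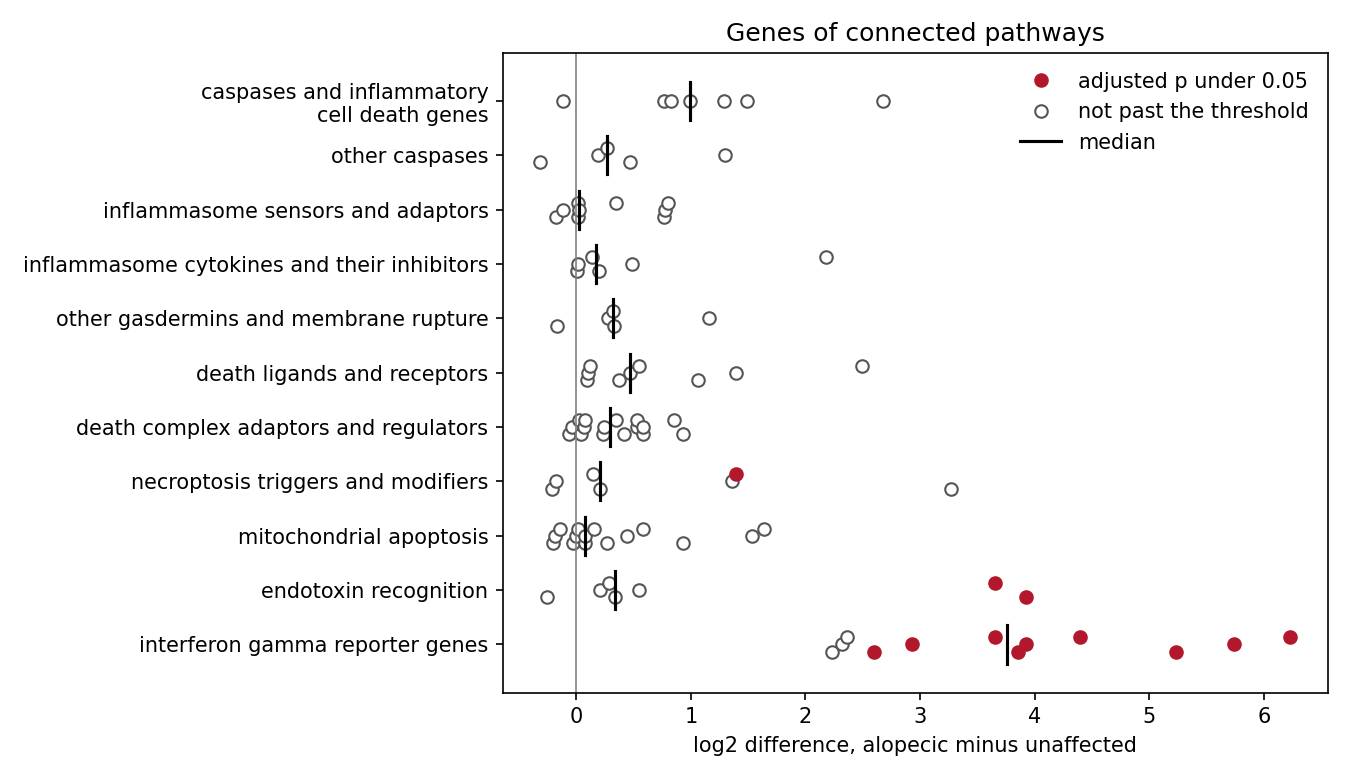
Log2 difference, alopecic minus unaffected, of each measured gene in 10 lists of connected pathways and, in the top row, of the 7 members; filled red points passed the test over all genes and black bars are medians. Red points stand in 3 rows, those of the interferon gamma reporter genes, endotoxin recognition and, for Adar alone, the triggers and modifiers of necroptosis.

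Interferon gamma raises the transcription of several members in cultured cells, and its reporter genes give a scale for the differences above. Whether it acted on the members in this skin was not tested, nor whether the reporter genes are specific to it. This list, too, was chosen with earlier results of these data known. Of 12 measured reporter genes 9 rose, where 0.264% of all genes rose. All 12 were higher in every alopecic array, against 6.93% of all genes, with a median log2 difference of 3.76. The largest differences were those of the chemokines Cxcl9, Cxcl11 and Cxcl10 and the GTPase Igtp, at 6.23, 5.74, 5.23 and 4.40. Leaving out alopecic replicate 1, 2 or 3 gave 8, 5 and 4 that rose, and leaving out unaffected replicate 1, 2 or 3 gave 4, 2 and 9. Their mean log2 value was 12.10, 11.45 and 11.48 in alopecic replicates 1, 2 and 3 and 7.85, 7.89 and 7.92 in unaffected replicates 1, 2 and 3. Alopecic replicate 1 was the highest, as it was for Casp1, Casp4, Casp8, Ripk3, Gsdmd and, among alopecic arrays, Fas. The differences of all 7 members but Mlkl were smaller than the smallest among the reporter genes, 2.23 for Psmb8, an immunoproteasome subunit named after its values were seen.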

How the data were processed

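Total RNA of skin from 6 mice was measured on 1 oligonucleotide array per mouse, after Qiagen miRNeasy purification and 3' IVT Express labelling, per the labels' protocols. The authors made log2 values with RMA, per the submitters' processing notes, and deposited 1 per probe set and array; the software is not named in the sources used here. The deposited table held 45101 probe sets, 64 of them controls, and array medians ran from 6.11 to 6.17. Arrays have no read depth, and 3 arrays per group limit the precision. No 2 arrays shared more than 92 identical values.

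Symbols came from the platform table, 34945 probe sets with 1 symbol each, updated by gene identifier through RefSeq GRCm38.p6 for 34741. The brightest probe set stood for each of 18193 genes. Alopecic minus unaffected differences were tested with limma 3.58.1 in R 4.3.3 (lmFit, eBayes, two-sided, Benjamini-Hochberg over all genes, threshold 0.05), and all p-values come from this fit unless named otherwise. "Rose" and "fell" mean past that threshold. The fit was tested on simulated data. No dim probe set was removed, so all 7 measured members entered the fit. The 15 alternatives were each of the 6 arrays left out and 9 other settings. Among these, the mean of a gene's probe sets and the probe set with the largest variance left the members' values unchanged. Each measured member had 1 probe set.

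The members and lists were chosen with earlier results of these data known. The named genes are the members, up to 4 genes past the threshold per list (otherwise the 2 with the largest difference) and the 3 genes most correlated with each member; Zbp1, Fasl, Psmb8, Tlr4, Cd14 and Cd4 fall outside this rule and were chosen after their values were seen. Of 109 pathway genes in 10 lists, 89 matched a measured gene, and 20 are not analysed here. Per the series' design text each array came from a separate mouse; no batch is given.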

Additional observations from a re-analysis of the deposited data

How the results depend on the processing

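In the 6 fits without 1 array and in 8 of the 9 other alternatives, 0 member genes passed, and Fas was the only member whose sign turned, running from -0.3624 to 0.2392 with 1 array left out (0.126 without alopecic replicate 3 and 0.2392 without unaffected replicate 3). Leaving out 1 array gave 0 member probe sets and from 2 to 10 pathway genes past the threshold, against 10 with all arrays. With array weights 2 member genes, Mlkl and Casp4, 1 member probe set and 18 pathway genes passed, and 126 of all genes rose, against 48 without weights; the cause was not tested. Leaving out the dimmer part of the genes removed Fas, Ripk3 and Mlkl. All genes that rose numbered from 4 to 34 with 1 array left out. The labels give the groups the same replicate numbers. Over all genes, deviations of same-numbered arrays from their group means had weak negative correlations (r = -0.132, -0.197 and -0.33). No alopecic array correlated best with its own number, and the numbers were not taken as pairs. Deviations from a mean of 3 arrays depend on each other, so these values cannot settle whether the arrays were paired. With the replicate block 0 member genes, 0 member probe sets and 0 pathway genes passed, and 0 of all genes rose; that fit has fewer residual degrees of freedom.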

Other observations

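The genes that recognise endotoxin, the trigger of Casp4, held 2 genes that rose of 7 measured, where 0.264% of all genes rose. In this list 3 were higher in every alopecic array, against 6.93% of all genes. Those that rose were the guanylate-binding proteins Gbp2, at 12.17 ± 0.27 in alopecic skin, against 8.25 ± 0.15 in unaffected skin (SD, n = 3 each; log2 difference 3.92, SE 0.17, adjusted p = 0.00342), and Gbp3, which differed by 3.66 (SE 0.26, adjusted p = 0.0132). Such proteins coat bacteria in the cytosol and help caspase-11 to bind endotoxin. Gbp2 and Gbp3 are also among the interferon gamma reporter genes, so this list does not add to them. With 1 array left out the count in this list was 1 or 2, at 1 without alopecic replicate 2, alopecic replicate 3, unaffected replicate 1 or unaffected replicate 2. Of the receptor genes, chosen after their values were seen, Tlr4 differed by 0.28 (SE 0.35, adjusted p = 0.9004) and Cd14 by 0.34 (SE 0.55, adjusted p = 0.922), and the groups overlapped for both.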
